A study of Drosophila melanogaster with 6 samples.

Results

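The 6 genes described here encode the scaffold and the vesicle-priming proteins of the presynaptic active zone. They were chosen by name: brp, Rim, Fife and Liprin-alpha as scaffold genes, and unc-13 and Cadps as priming genes. Their identifiers in the files are FBgn0259246 (brp), FBgn0053547 (Rim), FBgn0264606 (Fife), FBgn0046704 (Liprin-alpha), FBgn0025726 (unc-13) and FBgn0053653 (Cadps). They made up 6 of the 12392 genes for which exon bins were deposited, 170 of 63255 exon bins, and 875 of 122483 unannotated splicing events. All 6 genes passed the filter on low counts. RNA came from w[1118] Drosophila melanogaster, a white-eyed laboratory strain, at 72 h after puparium formation, a late pupal stage, with the flies kept at 27 °C. The 3 groups, with 2 libraries each, were brain, whole leg and indirect flight muscle (IFM), all of the same genotype and with no treatment. IFM is the fibrillar muscle that powers flight. A whole leg holds tubular muscle, cuticle, nerves and sense organs, so the leg libraries are not a pure muscle. The labels name GENEWIZ for mRNA selection and library preparation of IFM and LC Sciences for those of brain and leg, so by the labels tissue and provider cannot be told apart in any comparison with IFM. The methods of the study name LC Sciences alone, and which source is right was not settled here.

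At an active zone, the release site of a neuron, synaptic vesicles dock, are primed and fuse when calcium enters. Bruchpilot (Brp), of the ELKS/CAST family, builds the T-bar, the electron-dense scaffold of fly active zones that holds calcium channels close to the vesicles. Rim and Fife, a protein related to Piccolo and Rim, tether vesicles near these channels, and Liprin-alpha acts early in the assembly of the site. Unc-13 primes docked vesicles for fusion, and Cadps, the fly CAPS protein, acts in the release of dense core vesicles. Flight and leg muscles are innervated by motor neurons, whose cell bodies lie in the thoracic nervous system and whose axon endings are in the muscle.

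The exon bin counts summed to between 67091219 and 177964590 per library, with both of the highest totals in IFM. The summed markers of flight muscle were highest in IFM, and those of neurons, glia and photoreceptors in brain. Single markers did not all follow their label. Summed exon CPM, the bin counts per 1000000 counts of a library scaled with TMM (which assumes that most genes change little between libraries), of 5 flight muscle markers were 198707 and 303939 for IFM, 6488 and 4405 for brain and 66792 and 66460 for leg. Most of the IFM sum came from Mhc (119085 and 194546). Of the 5 markers, 3 were called higher in IFM than in leg (edgeR), Mhc was not called, and Mf was lower (3221 and 3517 against 7202 and 6618). The 3 leg muscle markers summed to 34005 and 38849 in leg, 3718 and 2993 in IFM and 2063 and 2405 in brain. TpnC73F, among them, was highest in brain (432 and 496, against 178 and 185 in leg). Cuticle and blood cell sums were also highest in leg, and motor neuron sums in brain. The 7 neuronal markers measured, of 8 listed, summed to 297 and 271 in IFM against 8358 and 6194 in brain, with 676 and 435 in leg. Glial markers stood at 631 and 618 for IFM, 4380 and 4771 for brain and 1113 and 1082 for leg. The 6 photoreceptor markers summed to 2837 and 3388 in brain, to 209 and 319 in IFM and to 79.8 and 74.6 in leg. Neuronal RNA was thus measured in all 3 tissues, and its share was highest in brain. Of the 6 photoreceptor markers, 5 were called higher in IFM than in leg (edgeR), and 1 was not called. How much of the neuronal RNA in IFM came from axon endings in the muscle and how much from other tissue was not tested. In bulk tissue, fewer cells of a type and less RNA per cell cannot be told apart. The libraries are described as biological duplicates. With 2 per group the p-values rest on a spread shared over all 6 libraries.

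Levels were compared between genes as exon CPM per kb of exon bins. In brain, Cadps stood highest with 214 and 154 CPM per kb in its 2 libraries. brp followed with 91.1 and 58.4 CPM per kb and unc-13 with 68.7 and 42.7, so that these neighbours overlapped. Rim reached 32.9 and 20.8 CPM per kb and Fife 25.3 and 19.4, which also overlapped, and Liprin-alpha was lowest with 14.4 and 11.4. Brain library 1 was above brain library 2 for each of the 6 genes. Among all genes tested, the brain level per kb of Cadps lay at percentile 97.9, that of brp at 95.1, that of unc-13 at 93.3, that of Rim at 85.9, that of Fife at 83.1 and that of Liprin-alpha at 72.4.

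The order was different in the muscle-containing tissues. In IFM, Liprin-alpha (10.1 and 10.4 CPM per kb) and Cadps (9.77 and 10.2 CPM per kb) were highest and overlapped. They were followed by unc-13 with 6.90 and 5.85, brp with 2.87 and 3.12, Rim with 1.34 and 1.39 and Fife with 0.550 and 0.773 CPM per kb, with no overlap between these neighbours. In leg, Cadps had 19.9 and 15.5 CPM per kb, Liprin-alpha 12.9 and 10.5 and unc-13 12.8 and 7.76. Leg levels of brp were 6.58 and 3.75 CPM per kb, those of Rim 3.06 and 1.51 and those of Fife 2.33 and 2.04. Fife was at percentile 16.4 of all genes in IFM and at 38.8 in leg, while Liprin-alpha stayed between percentiles 71.1 and 72.4 in all 3 tissues. The median gene stood at 4.07 CPM per kb for IFM, 4.63 for brain and 4.14 for leg.

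**Figure D1:**
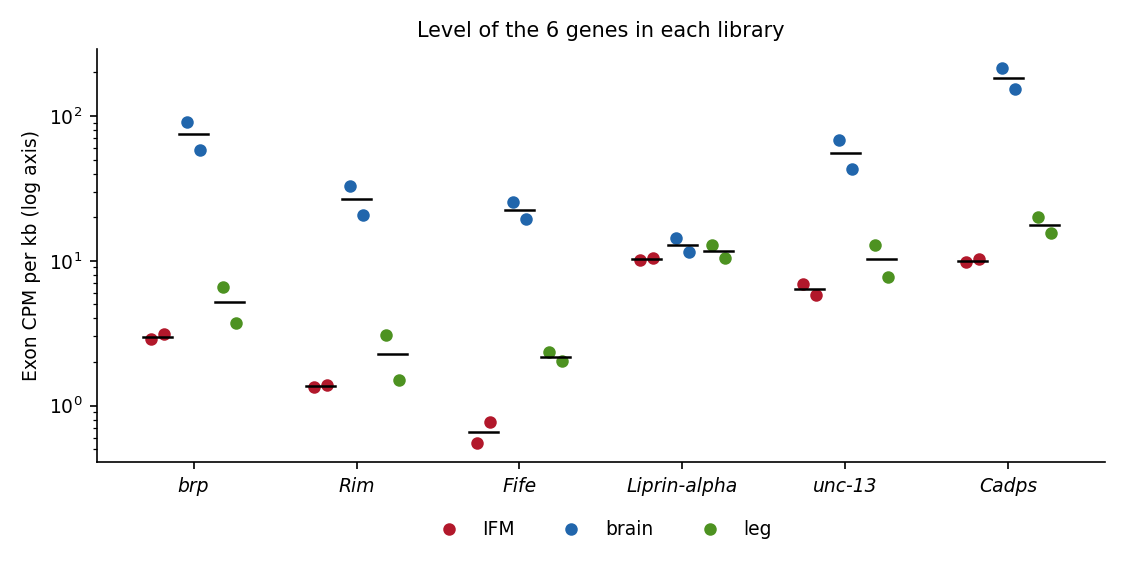
Exon CPM per kb of exon bins (log axis) of the 6 genes in each library. Points are libraries in IFM, brain and leg, and black lines are the means of 2 libraries. The brain points of brp, Rim, Fife, unc-13 and Cadps lie above all IFM and leg points of the same gene, and those of Liprin-alpha lie between 11.4 and 14.4, near its leg points.

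The comparison of IFM with brain asks how much RNA of these genes, which neurons use at their terminals, muscle tissue carried. Of the 6 genes, 5 were lower in IFM by edgeR's quasi-likelihood test with Benjamini-Hochberg adjustment over 12285 genes, and Liprin-alpha was not called. Among all genes tested, 31.4% were called lower in IFM than in brain.

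For the scaffold gene brp, exon CPM was 38.4 and 41.6 in IFM and 1216 and 780 in brain, which is 25-fold lower in IFM (log2 difference -4.64, SE 0.38, adjusted p = 0.000126). Rim had 19.1 and 19.8 exon CPM in IFM and 469 and 297 in brain (log2 difference -4.30, SE 0.42, adjusted p = 0.000248). Fife had the widest gap of the 6, with 5.32 and 7.48 exon CPM in IFM and 245 and 188 in brain, 33.7-fold lower in IFM (log2 difference -5.08, SE 0.26, adjusted p = 2.88e-05). For these 3 scaffold genes the IFM and brain libraries did not overlap, though the share of all genes without overlap is not given here. The IFM counts behind Fife were low, at 339 and 768 reads, whereas brp had between 2443 and 144850 reads in every library.

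Of the priming genes, unc-13 had 155 and 131 exon CPM in IFM and 1544 and 959 in brain, 8.74-fold lower in IFM (log2 difference -3.13, SE 0.36, adjusted p = 0.000503). Cadps had 54.6 and 57.2 exon CPM in IFM and 1196 and 859 in brain, 18.4-fold lower in IFM (log2 difference -4.20, SE 0.26, adjusted p = 4.37e-05). Both priming genes were thus lower in IFM, as brp, Rim and Fife were. The gap of unc-13 was the narrowest of the 5 called, a difference between genes that was not tested.

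Liprin-alpha had 62.9 and 64.6 exon CPM in IFM against 89.2 and 70.9 in brain, with 80.0 and 64.9 in leg. The IFM libraries lay below both brain libraries, and the leg libraries overlapped those of brain. The log2 difference of IFM from brain was -0.33 (95% interval -0.76 to 0.10, adjusted p = 0.141 in edgeR), that of IFM from leg was -0.18 (-0.61 to 0.24, adjusted p = 0.401 in edgeR) and that of brain from leg was 0.14 (-0.28 to 0.57, adjusted p = 0.540 in edgeR). This gene depends on the scaling: with total counts in place of TMM it was called in all 3 comparisons, with log2 differences of -1.80, -0.79 and 1.01. That scaling moved the median of all genes by -1.47, -0.60 and 0.85, and relative to the median of all genes Liprin-alpha then stood at -0.42, -0.30 and 0.19.

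Between IFM and leg the gaps were narrower. Fife and Cadps were called lower in IFM, 2 of the 6 genes, and 27.0% of all genes tested were called in that direction. Fife had 22.5 and 19.7 exon CPM in leg, and was 3.29-fold lower in IFM (log2 difference -1.72, SE 0.23, adjusted p = 0.00140 in edgeR). Cadps had 111 and 86.7 exon CPM in leg and was 1.77-fold lower in IFM (log2 difference -0.82, SE 0.23, adjusted p = 0.0226 in edgeR). The call of Cadps was lost without the first IFM library (adjusted p = 0.0809 in edgeR), without the second (0.0654) and without the first leg library (0.137).

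Leg exon CPM of brp was 87.9 and 50, that of Rim 43.6 and 21.5 and that of unc-13 287 and 174. In each of the 3 genes both leg libraries lay above both IFM libraries. The share of all genes separated in this way is not given here, so nothing is read from it. The leg libraries themselves differed 1.76-fold for brp, 2.03-fold for Rim and 1.65-fold for unc-13. None of the 3 was called (edgeR): the log2 difference of IFM from leg was -0.79 for brp (95% interval -1.59 to 0.02, adjusted p = 0.0852), -0.74 for Rim (-1.64 to 0.15, adjusted p = 0.129) and -0.69 for unc-13 (-1.49 to 0.12, adjusted p = 0.120). Without the second leg library, brp (log2 difference -1.17, adjusted p = 0.0317) and Rim (-1.20, adjusted p = 0.0226) were called lower in IFM. The same second leg library was the lower one for all 7 neuronal markers, by 1.11-fold to 3.14-fold. The part of this in the 3 genes was not tested.

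Between brain and leg, 5 of the 6 genes were called higher in brain, and 20.9% of all genes tested were called in that direction. The fold was 14.5 for brp (log2 difference 3.86, SE 0.37, adjusted p = 0.000355 in edgeR), 11.8 for Rim, 10.2 for Fife and 10.4 for Cadps. unc-13 was 5.43-fold higher in brain (log2 difference 2.44, SE 0.35, adjusted p = 0.00197 in edgeR). The 3 comparisons share libraries, so these values are no independent repeat of those above.

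**Figure D2:**
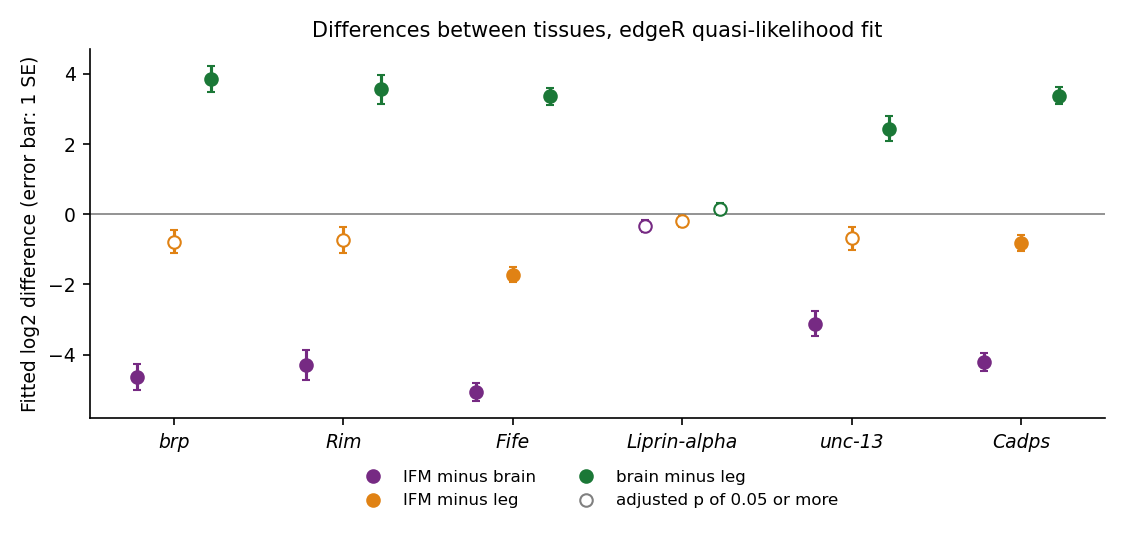
Fitted log2 difference of the exon counts of each gene, with TMM scaling, for IFM minus brain, IFM minus leg and brain minus leg. Error bars are 1 SE, and open points have an adjusted p of 0.05 or more. Liprin-alpha stays within 0.33 of 0 in all 3 comparisons, and the other 5 genes lie between -5.08 and -3.13 for IFM minus brain.

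Because neuronal markers moved with these genes, the counts were also set beside the summed counts of the 7 neuronal markers of the same library, a scaling chosen after the data had been seen. For brp, exon counts per 1000 marker counts were 129 and 153 for IFM, 145 and 126 for brain and 130 and 115 for leg, so the tissues overlapped in part. Rim had 64.1 and 73.1 per 1000 marker counts in IFM against 56.1 and 48.0 in brain, with 64.4 and 49.3 in leg. Cadps had 184 and 211 for IFM, 143 and 139 for brain and 164 and 199 for leg. Fife ran the other way, with 17.9 and 27.6 in IFM against 29.3 and 30.4 in brain, with 33.3 and 45.3 in leg. None of these 4 genes was called between any of the tissues when the marker counts were used as library size.

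unc-13 and Liprin-alpha did not follow the markers. unc-13 had 522 and 484 exon counts per 1000 marker counts in IFM and 424 and 400 in leg, but 185 and 155 in brain. These totals include bins that overlap genes on the other strand, such as CR43361 and asRNA:CR43425. With no strand setting given, their reads cannot be told apart from those of unc-13 there. In an edgeR fit with the marker counts as library size, the log2 difference of unc-13 was 1.57 for IFM and brain (adjusted p = 0.000556). For brain and leg it was -1.28 (adjusted p = 0.00373 in edgeR), and both were the reverse of the direction of its exon CPM. Liprin-alpha had 212 and 238 per 1000 marker counts for IFM, 118 and 149 for leg and 10.7 and 11.5 for brain, with log2 differences of 4.35 for IFM and brain (adjusted p = 1.14e-10 in edgeR) and -3.59 for brain and leg (adjusted p = 4.9e-09 in edgeR). In this fit no other difference of the 6 genes was called, with adjusted p of 0.0984 or more. Scaling to the markers moved the median of all genes by 4.64 for IFM and brain, by 0.90 for IFM and leg and by -3.74 for brain and leg. In that fit the median of all genes stood at 4.74, 1.01 and -3.77. Of 12285 genes tested, 11140 were called higher in IFM than in brain and 10532 lower in brain than in leg. Liprin-alpha thus lay near the median gene, and unc-13 moved less than the median gene. These calls are therefore not particular to the 2 genes. Which cells of the muscle or leg carried the unc-13 and Liprin-alpha RNA was not tested.

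**Figure D3:**
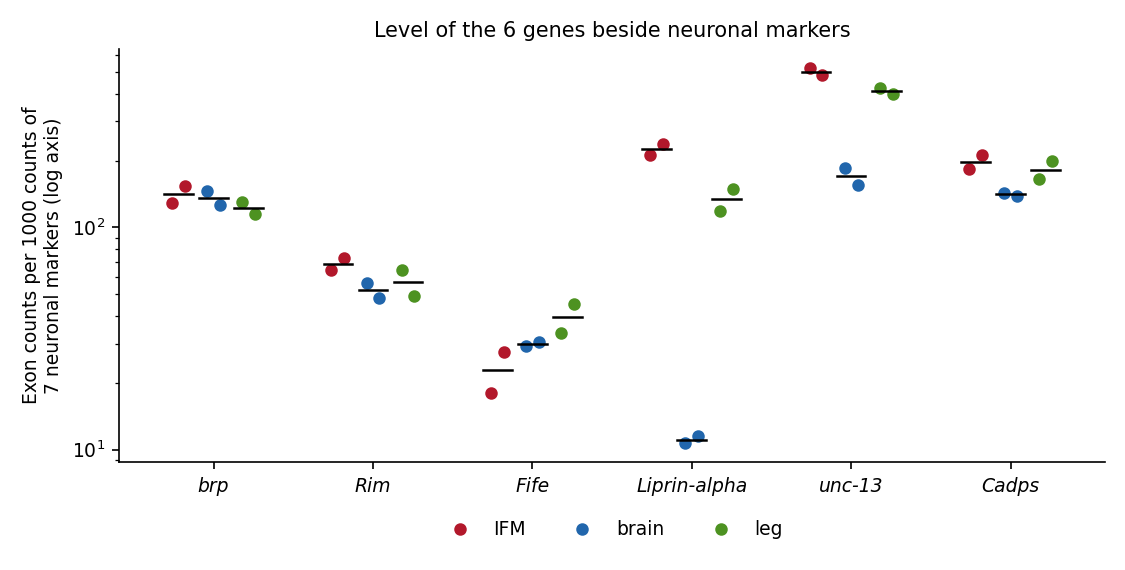
Exon counts of each gene per 1000 counts of the 7 neuronal markers of the same library (log axis). Points are libraries and black lines are means of 2 libraries. The points of brp, Rim and Cadps lie close together across tissues, while brain lies below IFM and leg for unc-13 (185 and 155) and for Liprin-alpha (10.7 and 11.5).

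Partners and regulators of the active zone were counted from a list of 27 genes, of which 22 had exon bins. The 5 others, Lar, Nrx-1, CASK, Syx1A and unc-104, were not analysed here. Between IFM and brain, 17 of the 22 were lower in IFM, 3 were higher and 2 were not called, with a median log2 difference of -4.06 against 0.10 over all genes tested. Between IFM and leg, 11 were lower in IFM, 4 higher and 7 not called (median -0.68 against 0.11). Between brain and leg, 18 were higher in brain, 2 lower and 2 not called (median 3.30 against -0.04). Most of the list thus had the brain-high pattern of brp, Rim, Fife, unc-13 and Cadps.

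The 4 genes of the list with the highest level per kb in brain were nSyb and Snap25, which encode SNARE fusion proteins, Sap47, which encodes a synapse-associated protein, and Rop, whose Sec1/Munc18 protein binds the SNAREs. Their brain means were 296 CPM per kb for nSyb, 277 for Snap25, 274 for Sap47 and 215 for Rop, all above the 184 of Cadps, and nSyb is also among the neuronal markers. RhoGAP100F, the fly syd-1, which acts with Liprin-alpha in the assembly of active zones, had 19.2 and 20.2 exon CPM in IFM against 570 and 344 in brain, with 40.1 and 24.4 in leg.

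In 5 genes of the list, brain was not higher than both other tissues. Nlg1, a neuroligin of the postsynaptic muscle membrane, had 119 and 144 exon CPM for IFM, 5.90 and 3.47 for brain and 50.4 and 51.2 for leg (log2 difference of IFM from brain 4.81, adjusted p = 4.58e-05 in edgeR). Srpk79D, a kinase that keeps Brp from gathering in axons, had 165 and 181 exon CPM in IFM against 63.8 and 42.5 in brain, with 68.7 and 76.4 in leg (log2 difference of IFM from brain 1.70, adjusted p = 0.00088 in edgeR). Liprin-beta, a relative of Liprin-alpha, was highest in leg, with 75.7 and 83.2 exon CPM above 26.7 and 25.2 for IFM and 19.2 and 19.3 for brain. Spn, the fly spinophilin, had 316 and 394 exon CPM for IFM, 315 and 222 for brain and 131 and 115 for leg. The scaffold gene dlg1, used on both sides of synapses, had 391 and 498 in IFM against 405 and 290 in brain, with 646 and 466 in leg, and was called in neither comparison with brain (adjusted p = 0.269 and 0.0836 in edgeR).

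The genes whose profile over the 6 libraries was most like that of each member were sought among 2576 genes with a mean of at least 50 exon CPM, by the root mean square difference of centred log2 (exon CPM + 1). For brp these were RhoGAP100F (0.0747) and Nckx30C (0.117), and for Rim they were Nckx30C (0.0767) and nrv3 (0.128). Cadps was nearest to Pde9 (0.0821) and PsGEF (0.0928), unc-13 to dtn (0.111) and rdgB (0.117), and Fife to SIFaR (0.107) and CG7990 (0.132). Liprin-alpha was nearest to Gug (0.0508) and Taf4 (0.0523), which had 60.9 to 138 exon CPM in every library. A smaller value means a closer profile, and these values describe the profiles and nothing more.

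Exon bins, the parts into which the annotated exons of a gene are divided, showed whether the tissues used different ends or internal exons of the same gene. All 340 borders of the 170 bins of the 6 genes matched exon borders of the BDGP6.54 annotation. A bin was called where its change between tissues differed from that of the rest of its gene (diffSpliceDGE of edgeR, adjusted over all bins). Between IFM and brain 9 of the 170 bins were called (5.29%), against 7.11% of all bins tested. For IFM and leg 4 were called (2.35%, against 3.91%), and for brain and leg 7 (4.12%, against 4.22%). The share of called bins was thus no higher than that of all genes, and 12 distinct bins were involved. Rim had no called bin among 32, with lowest adjusted p of 0.0684, 0.373 and 0.994 in the 3 comparisons.

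Of the 12 bins, 6 were in unc-13, which lies on the minus strand of chromosome 4 at 867824 to 912331 with 7 annotated transcripts. Its bins E036 to E040, 3000 bases between 904822 and 909184, belong only to transcript unc-13-RG and form a non-coding leader, the untranslated exons before the start codon. They held 9.57% and 6.49% of the unc-13 counts for IFM, 1.04% and 1.49% for brain and 15.8% and 22.7% for leg. Brain was thus below both other tissues with no overlap, and leg was the highest.

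In bin E037 the counts were 303 and 257 in IFM against 503 and 424 in brain, with 897 and 855 in leg. Its use relative to the rest of unc-13 was higher in IFM than in brain (log2 difference 3.02, adjusted p = 6.63e-08 in edgeR) and lower in brain than in leg (-4.07, adjusted p = 8.18e-12). The 4 other leader bins were called in the same 2 comparisons, with log2 differences of 2.44 to 3.19 for IFM and brain and -3.99 to -3.30 for brain and leg. None was called between IFM and leg, with adjusted p of 0.0586 or more. As a level rather than a share, E036 to E039 were higher in leg than in brain (log2 difference of brain from leg -1.66 to -1.41) and higher in leg than in IFM (log2 difference of IFM from leg -1.83 to -1.51). For IFM and brain, use is relative to the rest of unc-13, and unc-13 as a whole was 8.74-fold lower in IFM. The higher use in IFM than in brain thus does not show a higher level of the leader in IFM.

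On the other strand, E036 to E039 overlap the pseudogene CR43361, and the strand setting of the exon counting is not given in the sources used here. E037 and E038 also overlap a transposable element on the same strand as unc-13, and E039 overlaps transposable elements on the other strand. CR43361 had 641 and 652 counts for IFM, 1462 and 1413 for brain and 2677 and 2367 for leg, so reads of the 2 genes cannot be told apart there. E040 overlaps neither CR43361 nor a transposable element, and had 44 and 48 counts in IFM against 66 and 65 in brain, with 66 and 80 in leg. Its use was called for IFM and brain (log2 difference 3.19, adjusted p = 0.00580 in edgeR) and for brain and leg (-3.30, adjusted p = 0.00501). The E040 call for IFM and brain was lost without the first IFM library (adjusted p = 0.149 in edgeR), the second (0.0614) or the first brain library (0.118), and that for brain and leg without the first brain library (0.136). The E036 call for IFM and brain was lost without the first IFM library (0.0562).

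The remaining called bin of unc-13, E023, is a coding microexon of 9 bases at 885454 to 885462, present in transcripts RC, RE and RF. It took 1.17% and 1.29% of unc-13 counts for brain, 0.314% and 0.386% for IFM and 0.319% and 0.331% for leg. Its use was lower in IFM than in brain (log2 difference -1.80, SE 0.49, adjusted p = 0.00682 in edgeR) and higher in brain than in leg (1.91, SE 0.48, adjusted p = 0.00392). IFM and leg differed by a log2 of 0.10 (adjusted p = 1.0).

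unc-13 has an upstream and a downstream coding start. The first exons of the downstream start, E025 to E027, used by RB and RE, held 17.1% and 15.9% of unc-13 counts in brain against 6.63% and 8.11% in IFM, with 9.23% and 6.77% in leg. The shares did not overlap between brain and the other tissues. No bin of the 3 was called, with E025 the nearest (log2 difference of IFM from brain -1.18, adjusted p = 0.0540 in edgeR). The coding exons of the upstream start, E028 to E033, held 16.1% and 15.4% for IFM, 17.5% and 16.5% for brain and 12.6% and 11.6% for leg, and its first exons E034 (0.63, adjusted p = 0.949) and E035 (-1.37, adjusted p = 0.154) were not called between IFM and brain. Of the pair of mutually exclusive exons of 107 bases, E018 took 82.0% and 78.6% of the counts in IFM against 66.0% and 68.2% in brain, with 61.1% and 58.1% in leg. E017, the other exon of the pair, was not called (log2 difference of IFM from brain -0.93, adjusted p = 0.354 in edgeR). These exons overlap the antisense gene asRNA:CR44029, which had 1049 and 1263 counts for IFM, 17531 and 10745 for brain and 2376 and 1483 for leg.

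**Figure D4:**
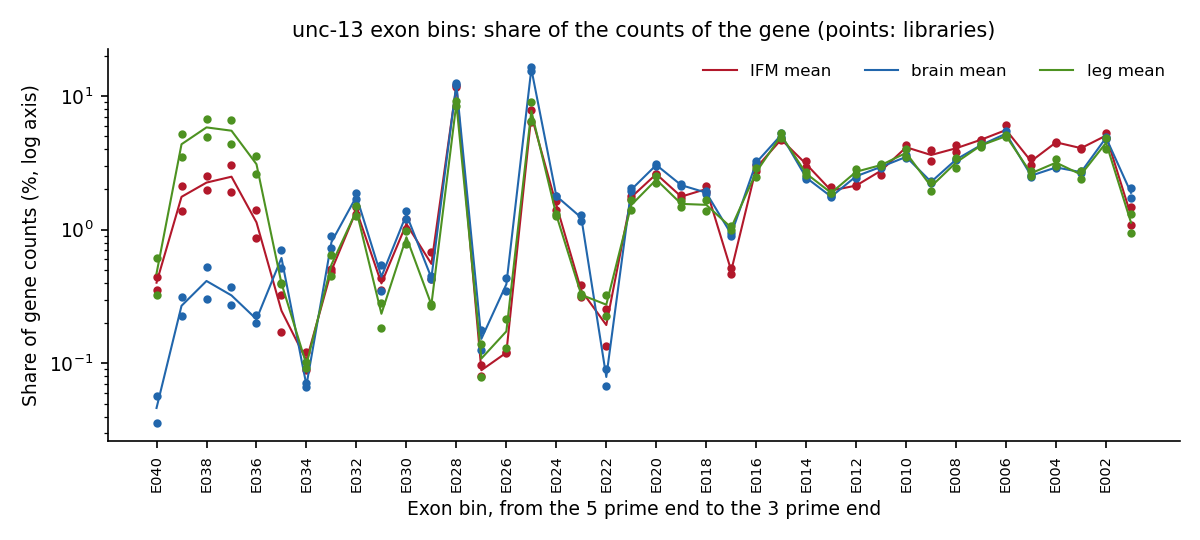
Share of the unc-13 counts of a library (%, log axis) in each of its 40 exon bins, from the 5′ end (E040) to the 3′ end (E001). Points are libraries and lines are tissue means. At the 5′ end the brain points of E036 to E040 lie below those of IFM and leg, and at E023 the brain points (1.17 and 1.29) lie above them.

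In Liprin-alpha, on chromosome 2L at 6723903 to 6732766, the called bin was E011, an exon of 129 bases at 6727194 to 6727322 that transcript Liprin-alpha-RC lacks. It had 59 and 65 counts in IFM against 518 and 403 in brain, with 109 and 183 in leg. Its share of the gene was 1.47% and 0.980% for IFM, 4.87% and 4.76% for brain and 1.92% and 3.78% for leg. IFM used it less than brain (log2 difference -1.99, SE 0.33, adjusted p = 4.87e-05 in edgeR), and this held in each alternative run. The leg libraries lay apart from each other, between IFM and brain, and neither comparison with leg was called (IFM and leg -1.19, adjusted p = 0.0771, and brain and leg 0.80, adjusted p = 0.478). Liprin-alpha, which was not called as a whole gene with TMM scaling, thus differed in the use of 1 internal exon.

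In Fife, on the minus strand of chromosome 3L at 2655415 to 2711690, bin E007 at 2670608 to 2672828 is the 3′ end of the short forms RF and RG. It held 18.8% and 18.1% of Fife counts in brain against 15.0% and 9.90% in IFM, with 6.62% and 3.47% in leg. The exons that only the long forms carry at their 3′ end, E001 to E006, held 40.6% and 38.1% for brain, 50.1% and 51.3% for IFM and 60.2% and 48.3% for leg. E001, with 2258 of the 4549 bases of this group, overlaps the genes CG42304 and Snup on the other strand. As the strand setting is not given, reads of these genes cannot be told apart from those of Fife there. Counts of E001 also enter the test of E007, which sets a bin against the rest of its gene. Use of E007 was higher in brain than in leg (log2 difference 1.85, SE 0.32, adjusted p = 1.94e-05 in edgeR), which held in each alternative run. It was also higher in IFM than in leg (1.23, SE 0.35, adjusted p = 0.0246), a call lost in 6 alternatives, such as without the first IFM library (adjusted p = 0.312) or the second leg library (0.433).

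The other 2 called bins of Fife rest on few IFM counts. E011 held 7.96% and 5.21% of Fife counts in IFM against 2.27% and 2.50% in brain, with 0.999% and 2.72% in leg, and was higher in IFM than in brain (log2 difference 1.42, adjusted p = 0.0482 in edgeR) and than in leg (1.80, adjusted p = 0.0231). E017 held 2.06% and 3.78% for IFM, 8.20% and 8.71% for brain and 6.43% and 9.32% for leg, and was lower in IFM than in brain (-1.37, adjusted p = 0.0183). Both calls of E011 and E017 against brain were lost without any single IFM or brain library, and that of E011 against leg without the first IFM library, either brain library or the first leg library. With limma diffSplice each of these calls was lost (adjusted p = 0.0505 for E011 and 0.0633 for E017 against brain, 0.0816 for E011 against leg). The call of E011 against leg was also lost with the IFM and leg libraries alone (0.124 in edgeR).

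brp, on chromosome 2R at 9503765 to 9541565, had a single called bin. E011, at 9522938 to 9524293, belongs to the longest forms RJ and RN. It had 50 and 81 counts in IFM against 1252 and 745 in brain, with 17 and 26 in leg. It held 2.05% and 1.90% of brp counts for IFM, 0.864% and 0.801% for brain and 0.272% and 0.698% for leg, with no overlap. The call was for IFM and leg (log2 difference 2.19, SE 0.58, adjusted p = 0.0110 in edgeR), and it was lost without the first IFM library (0.173), the second (0.162) or the first leg library (0.240). It was also lost with limma in place of edgeR (adjusted p = 0.198 in limma diffSplice). E010, the first exon of the shortest form RI, held 2.29% and 2.55% in IFM against 3.35% and 3.23% in brain, with 2.23% and 2.68% in leg, and was not called. The 3′ extension E029 to E030 held 39.8% to 45.0% in every library.

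Cadps, on chromosome 4 at 1230837 to 1271759, also had a single called bin, E002 at 1231883 to 1232190, the first exon of 4 of its 5 transcripts (RA, RB, RD and RE). It held 0.748% and 0.749% of Cadps counts for IFM, 1.29% and 1.36% for brain and 1.37% and 2.18% for leg. Its use was lower in IFM than in leg (log2 difference -1.20, SE 0.33, adjusted p = 0.0278 in edgeR). The call was lost without any of 5 of the 6 libraries, the exception being the first leg library. It was also lost with limma (adjusted p = 0.185 in diffSplice) and with the IFM and leg libraries alone (0.251 in edgeR).

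**Figure D5:**
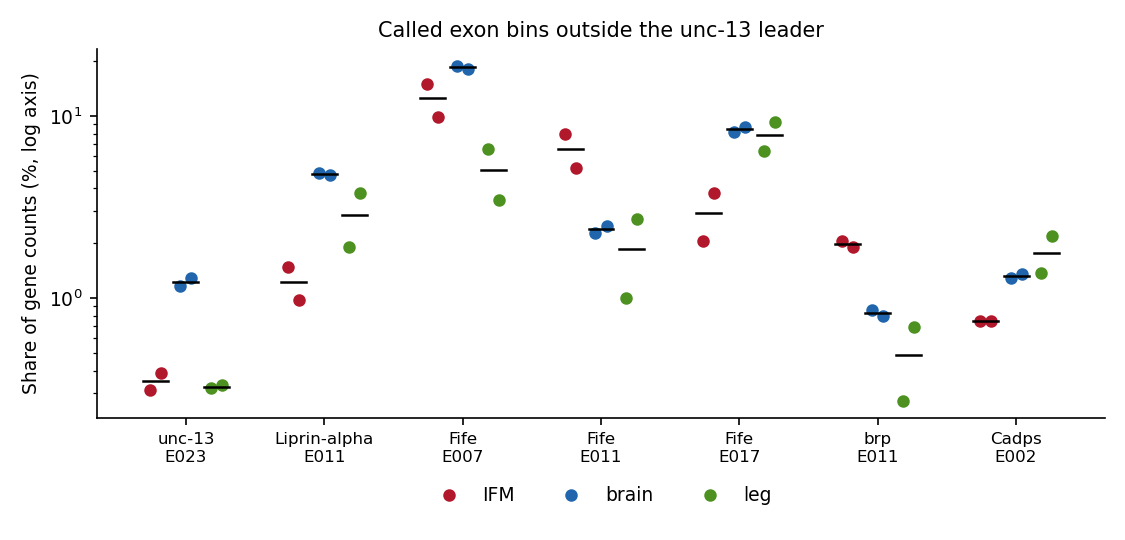
Share of the counts of the gene (%, log axis) in the 7 called exon bins outside the unc-13 leader. Points are libraries and black lines are means of 2 libraries. Brain is above both other tissues in unc-13 E023 (1.17 and 1.29) and Liprin-alpha E011 (4.87 and 4.76), and IFM is above both in Fife E011 and brp E011.

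Unannotated events, counted by fortuna, a tool that pseudoaligns reads to annotated transcripts and to new combinations of their splice sites, gave a further readout of the 6 genes. unc-13 had 295 events, Cadps 222, brp 134, Rim 114, Fife 56 and Liprin-alpha 54. Exon skips, junctions between annotated exons that no annotated transcript joins, made up 771 of the 875 events. Event reads of the 6 genes were 1234 and 1918 in IFM against 12089 and 7593 in brain, with 1339 and 1012 in leg. Per 1000 exon counts, brain was the lowest of the tissues for unc-13, with 74.0 event reads for IFM, 40.3 for leg and 15.6 for brain. Cadps had 80.8 event reads per 1000 exon counts in IFM, 31.8 in leg and 25.3 in brain. Over all genes the values were 19.4 in IFM, 7.26 in leg and 10.1 in brain, so IFM was above brain for genes in general.

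A total of 150 reads in a tissue was reached by 1 event of the 6 genes for IFM, by 32 for brain and by 3 for leg. Over all genes of the series this total was met by 3525 IFM events, 1590 brain events and 1004 leg events. Of the 32 in brain, Cadps had 12, brp 10, Rim 5 and unc-13 5, while Fife and Liprin-alpha had 0 in any tissue. At least 50 reads over the 6 libraries were found for 120 events, which were tested. In edgeR, 108 of the 120 differed between IFM and brain, 107 of them lower in IFM (63.5% of all events tested were called). Between IFM and leg 31 differed (42.7% of all events), 25 of them lower in IFM, and between brain and leg 92 (34.8% of all events), 91 of them higher in brain. Of the 120, 101 reached 50 reads in brain alone, 9 in IFM and 6 in leg, so most passed the filter through brain, which largely sets the direction of these counts, and nothing is read from them. Relative to the exon CPM of the gene, 22 of the 120 differed between IFM and brain (25.0% of all events tested this way), 16 for the IFM and leg comparison (23.9%) and 4 for that of brain with leg (2.52%). Of the 9 that were higher in IFM than in brain relative to the gene, 8 were in unc-13, and of the 13 lower, 6 were in Cadps and 4 in brp. Of the 120 tested, 33 were in unc-13, 40 in Cadps and 23 in brp. The filter bears on these directions as well, so nothing is read from them either.

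Most reads in IFM were found for an exon skip in unc-13 from 883081 to 912187, which joins the first exon of unc-13-RG to bin E019. Between them lie 21 bins that include both annotated coding starts, at 892796 and 903342. It had 70 and 89 reads for IFM, 6 and 5 for brain and 3 and 3 for leg. Relative to the gene it was higher in IFM than in brain (log2 difference 5.95, adjusted p = 0.000473 in edgeR) and than in leg (3.94, adjusted p = 0.00444), which held in each alternative run. This is also the only event of the 6 genes with 150 reads in IFM. It was named for its IFM reads and reached the read minimum for testing through IFM alone. That choice favours a higher value in IFM, so no preference for IFM is read from these calls.

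A further unc-13 skip starts in the leader, between E039 and E016 (878992 to 907620). It had 48 and 72 reads in IFM against 457 and 177 in brain, with 123 and 100 in leg, and was lower in IFM than in leg relative to the gene (log2 difference -1.69, adjusted p = 0.0311 in edgeR). That call was lost without any single IFM or leg library (adjusted p of 0.0585 to 0.180 in edgeR). The skip from E023 to E003 (871846 to 885454), which passes over 19 bins, had 64 and 69 reads for IFM, 96 and 41 for brain and 67 and 97 for leg. Relative to the gene it was higher in IFM than in brain (2.17, adjusted p = 0.0158) and lower in brain than in leg (-3.23, adjusted p = 0.0176). The first call was lost without the first IFM library (0.0646) or the second brain library (0.0994), and the second without any single brain or leg library (0.0658 to 0.0843). An event in the leader, 907047 to 907074, lies in the stretch that overlaps CR43361 and is typed by fortuna as an alternative donor. Its end at 907074 is the border of bin E038, which is the donor side on the minus strand. The unannotated end, 907047, thus lies on the acceptor side. This event had 16 and 57 reads in IFM against 63 and 62 in brain, with 88 and 106 in leg. It was lower in IFM than in leg (-2.32, adjusted p = 0.0124) and lower in brain than in leg (-3.57, adjusted p = 0.0112) relative to the gene. The first call was lost without the first IFM library (0.107), and the second without either brain library (0.0845 and 0.0591) or the first leg library (0.0843).

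In Cadps, the skip from E004 to E009 (1234799 to 1244337) leaves out 827 bases of exon bins. It had 43 and 72 reads for IFM, 99 and 101 for brain and 4 and 8 for leg, the single Cadps event that was higher in IFM relative to the gene (log2 difference 2.38 from brain, adjusted p = 0.00883, and 2.57 from leg, adjusted p = 0.0131 in edgeR). The call from brain was lost without the first brain library (0.0576) and that from leg without the first leg library (0.0745). Other Cadps skips begin at E002, whose share was lowest in IFM. The skip from E002 to 1254006 had 211 and 154 brain reads, 7 and 4 leg reads and 0 in either IFM library. That to 1264656 had 106 and 78 brain reads, 11 and 9 leg reads and 0 in either IFM library. A count of 0 allows up to 3 reads in a library, so no fold is given. Skips from E002 to 1261952 (7 and 9 IFM reads, 234 and 109 brain reads) and to 1270732 (7 and 9 IFM reads, 210 and 79 brain reads) were present in IFM.

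In brp, the skip of the 434-base bin E007 (9510004 to 9510832) had 230 and 156 reads in brain against 2 and 9 in IFM, with 2 and 1 in leg. That bin is not a multiple of 3 bases long. The skip of the 183-base bin E020 (9530206 to 9532664), which is a multiple of 3, had 194 and 156 reads for brain, 3 and 5 for IFM and 5 and 2 for leg, and was lower in IFM than in brain relative to the gene (log2 difference -1.80, adjusted p = 0.0466 in edgeR). This call was lost without either IFM library (0.205 and 0.281), without the first brain library (0.05005) and with a minimum of 10 reads (0.169). In Rim, on the minus strand of chromosome 3R at 17872748 to 17916578, the skip between E018 and E023 (17889780 to 17892540) had 179 and 180 brain reads, 5 and 6 leg reads and 0 in either IFM library. Like the brp skips above, it reached the read minimum for testing through brain alone, which favours a lower value in IFM. Relative to the gene, this Rim skip was lower in IFM than in brain (adjusted p = 0.00192 in edgeR) and than in leg (adjusted p = 0.00822), the latter call being lost without the second IFM library (0.0591).

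The events of Fife and Liprin-alpha were thinner. In Fife, the skip of bin E019 (2689938 to 2711352) passes over 231 bases that are untranslated in all 4 transcripts. It had 98 and 42 brain reads, 3 and 6 leg reads and 0 in either IFM library. In Liprin-alpha, the skip from E008 to E013 (6726303 to 6727863), which passes over the called exon E011, had 27 and 26 reads for IFM, 68 and 25 for brain and 17 and 27 for leg, and its difference between IFM and brain relative to the gene was not called (log2 difference -1.37, adjusted p = 0.117 in edgeR).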

How the data were processed

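RNA-seq libraries of IFM, brain and leg, 2 per tissue, were analysed. As the submitters' processing notes list, the authors used STAR 2.7.3a, SAMtools 1.1, featureCounts of Subread 2.0.0 and DESeq2 1.32.0 on the BDGP6 build. The deposited exon tables from DEXSeq hold raw counts per exon bin and library, and the deposited fortuna tables hold raw read counts per unannotated event for each read end. The deposited gene tables hold a mean normalized signal over 4 libraries, which entered no test. Fold changes and p-values of the authors were not used. The DEXSeq version and the strand setting are not given in the sources used here.

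Exon bins were joined over the 3 tables and summed per gene, 78 lines of each table being left out because they name no single gene or bin. Columns of the exon tables name a tissue but not a replicate of the labels, so library 1 and 2 follow the column names. For events, both read ends were added, so a pair that crosses a junction with both ends counts more than once. edgeR 4.0.16 in R 4.3.3 (TMM, filterByExpr, quasi-likelihood F test, tissue as the only factor, all 6 libraries in 1 fit, Benjamini-Hochberg adjustment at 0.05) tested genes and events with at least 50 reads, and its diffSpliceDGE tested bins. Events were also tested with the log of the exon CPM of the gene plus 0.1 as an offset. The offset was planned per library, but the tissue mean was used because exon columns and event files could not be matched by replicate. A log2 difference is the first tissue minus the second, and 95% intervals are from the same fit. Intervals and counts of 0 cover counting and library error only.

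Alternatives used DESeq2 1.42.0, limma 3.58.1, other filters and scalings, each pair of tissues alone, and each library left out. Library size from neuronal marker counts was chosen after seeing the data. The tests were also run on simulated counts with the means, library sizes and spread of these libraries. Members, lists and markers were chosen with earlier results of these data known. Named were the 6 members, the 4 partners highest in brain and those not higher in brain than in both other tissues, the 2 nearest profiles per member, bins with the largest called change plus alternative ends, and events with most reads or calls in several comparisons, of which those with the clearest reads are given. Python 3.11.15 with pandas 2.3.3, numpy 2.4.6 and matplotlib 3.10.9 did the rest.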

Additional observations from a re-analysis of the deposited data

How the results depend on the processing

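As exon CPM, 5 of the 6 genes differed from brain in both comparisons under most settings. With the neuronal markers as library size, 2 were called for IFM and brain, 0 for IFM and leg and 2 for brain and leg, against 5, 2 and 5. Of all 12285 genes tested, 11140 were then called higher in IFM than in brain, and 10532 lower in brain than in leg. Between IFM and leg, 5322 were then called higher in IFM and 1130 lower. That scaling turned the log2 difference of IFM from brain to 0.058 for brp, 0.40 for Rim, 1.57 for unc-13 and 0.485 for Cadps, that of IFM from leg to 0.12 for Cadps, 0.21 for brp, 0.27 for Rim, 0.29 for unc-13 and 0.75 for Liprin-alpha, and that of brain from leg to -0.13 for Rim, -1.28 for unc-13, -0.37 for Cadps and -0.40 for Fife. Liprin-alpha turned to 4.35 for IFM and brain and to -3.59 for brain and leg. For IFM and leg, total counts in place of TMM gave 6 calls and a log2 fold of at least 1 gave 1. Of all called genes, 52.9%, 53.1% and 47.9% were higher in the first tissue with TMM, and 24.5%, 33.4% and 79.9% with total counts. Leaving out each library gave 5 to 6, 1 to 4 and 5 to 5 called genes. Without the second brain library Liprin-alpha was called lower in IFM than in brain (-0.62, adjusted p = 0.0435 in edgeR).

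For bin use, 9, 4 and 7 bins were called. IFM and brain alone gave 14, and leaving out each library gave 5 to 14, 0 to 5 and 6 to 7. For event reads, 108, 31 and 92 were called. A minimum of 10 reads gave 200 for IFM and brain, a minimum of 150 gave 43, 13 and 37, the pair alone gave 13 for IFM and leg, and total reads gave 48 there. Leaving out each library gave 62 to 105, 11 to 33 and 42 to 85. Relative to the gene, 22, 16 and 4 were called. A minimum of 150 reads gave 8 and the pair alone 10 for IFM and leg, a minimum of 10 gave 8 for brain and leg, and leaving out each library gave 7 to 33, 5 to 16 and 0 to 5.

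Events of the 6 genes with 150 reads numbered 1 in IFM, 32 in brain and 3 in leg. With 50 reads they numbered 9, 101 and 6, and with 750 reads 0, 0 and 0. In single libraries with 75 reads they numbered 0 and 1 for IFM, 42 and 23 for brain and 2 and 3 for leg. As a median over bins, the level per kb in IFM was 3.66 CPM for brp, 1.41 for Rim, 14.2 for Cadps and 0.832 for Fife, 2.90 in leg for Fife, 16.4, 107 and 22.4 in IFM, brain and leg for unc-13, and 14.0, 16.4 and 15.2 for Liprin-alpha.

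Among single genes, bins and events, 1343 values kept their direction and their side of the threshold, 164 lost the call, 9 gained one and 15 changed sign, the 15 with the marker scaling. The replicate numbers did not pair the event libraries (correlations of 0.0115, 0.0124 and 0.0236 over 16595 events). A fit with the replicate block gave 105, 25 and 87 events called, and 20, 14 and 6 relative to the gene; the brp skip of E020 lost its call with the block (adjusted p = 0.066 in edgeR). No paired analysis was possible for genes and bins because the exon columns carry no replicate number of the labels. The IFM counts of Fife were low, at 339 and 768 reads, which limits its bins and events.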
